A study of Mus musculus with 40 samples.

Results

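Arginine can take 2 main routes in myeloid cells, and 10 genes of these routes and of itaconate synthesis were followed across every group of the study: the arginases Arg1 and Arg2, ornithine decarboxylase Odc1, the arginine transporters Slc7a1 and Slc7a2, the inducible nitric oxide synthase Nos2, the citrulline-recycling enzymes Ass1 and Asl, the cofactor enzyme Gch1, and the itaconate enzyme Acod1. They were taken by name, and all 10 were found among the 54513 gene rows of each of 3 expression tables. The tables hold RNA sequencing values of CD11b+ cells, sorted by flow cytometry from tumor-bearing or naïve brain hemispheres of male mice. Peptides were infused into the tumor from osmotic pumps. 7aaRGD carries an integrin-binding motif and blocks signalling of the matrix protein SPP1 through integrins, 7aaRAE is a control peptide without that motif, and Vehicle is water.

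In the first experiment, C57BL/6 mice carrying GL261 glioma cells with tdTomato and luciferase received Vehicle, 7aaRGD or 7aaRAE and were examined 21 days post implantation (DPI), beside naïve mice without a tumor. Each of its 4 groups had 3 samples, and each sample pooled 2 animals. In the second, GL261 tumors were examined at 28 DPI after Vehicle (4 samples), 7aaRGD (4), an antibody to the immune checkpoint PD-1 (3) or 7aaRGD together with anti-PD-1 (3), with 1 animal per sample. The methods give a control antibody for the groups without anti-PD-1. The methods place this experiment in C57BL/6 mice, whereas the labels call the animals nude mice. H2-Ea-ps, a class II gene that C57BL/6 mice do not transcribe, was at 0.0976 RPKM (reads per kilobase and library size) or less in every sample of both GL261 experiments and between 22.5 and 374 RPKM in the U87-MG experiment. There, U87-MG, a human glioma line expressing RFP, was grown for 21 days in Athymic Nude-Foxn1nu mice, which lack mature T cells, under Vehicle, 7aaRGD or 7aaRAE, with 3 samples each. Each of these samples also pooled 2 animals.

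Arginase hydrolyses arginine to ornithine and urea, and ornithine decarboxylase turns ornithine into putrescine, the first polyamine. Nitric oxide synthase instead oxidises arginine to nitric oxide and citrulline, which Ass1 and Asl rebuild into arginine. In mouse macrophages the arginase gene Arg1 is a classical response to IL-4 and IL-13 through STAT6, while Nos2 and Acod1 are classical responses to interferon-γ and microbial products. Acod1 makes itaconate from an intermediate of the tricarboxylic acid cycle.

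Between 9323 and 9815 genes reached 1 RPKM in each of the 35 samples analysed, out of 40 in the study. The depth of the libraries is unknown, because the tables hold no read counts. The markers of the sorted cells (Itgam, Cd68, Csf1r, Aif1 and Ptprc) were present in every group, with Itgam between 51.2 and 195 RPKM. In the first experiment the summed level of 10 microglial markers was 15516 to 15913 RPKM in naïve samples and 1282 to 2557 in tumor-bearing ones, while 10 markers of monocytes and monocyte-derived macrophages summed to 398 to 439 and 5900 to 6989. The U87-MG samples held more of the former, 6254 to 10609, and less of the latter, 1461 to 4308. Differences below are on the log2(RPKM + 1) scale, which understates the change of low genes. They were tested with limma across all protein-coding genes whose mean reached 1 RPKM, adjusted by the Benjamini-Hochberg procedure and called at an adjusted p of 0.05. Comparisons within an experiment share their Vehicle samples, and levels in different experiments come from tables normalized separately and are only set side by side. In bulk samples, fewer cells of a type and less RNA per cell cannot be told apart.

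All 10 genes were at a higher level in CD11b+ cells of Vehicle-treated GL261 tumors than of naïve brain at 21 DPI, where 82.9% of the 9722 genes tested were called and 34.6% were called higher in tumors. For 7 of the 10 this count carries no weight, since Arg1, Arg2, Nos2, Slc7a2, Acod1, Ass1 and Gch1 were each below 1 RPKM in every naïve sample and entered the test only through the tumor samples. Odc1, Slc7a1 and Asl were present on both sides. Odc1 (mm10 chr12:17544794-17551505, plus strand) measured 8.33, 5.89 and 7.69 RPKM in naïve and 17.6, 18.1 and 21.5 in Vehicle samples, a 2.61-fold higher mean (log2 difference 1.28 ± 0.12 SE, limma adjusted p = 2.03e-05). Slc7a1, the constitutive cationic amino acid transporter (chr5:148327410-148399904, minus strand), was 2.09, 1.88 and 1.90 RPKM in naïve and 4.05, 4.79 and 5.25 in Vehicle samples, 2.40-fold. Asl, argininosuccinate lyase (chr5:130011258-130029247, minus strand), rose least, from 5.04, 4.90 and 4.68 RPKM to 9.23, 8.74 and 9.04, or 1.85-fold. In all 3 the groups did not overlap, as for 85.4% of all genes. The cell composition moved with this contrast: all 10 microglial markers were called lower (median log2 difference -3.44) and all 10 monocyte markers higher (4.52), and their part in the 10 genes' levels was not tested.

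Among the 7 genes below 1 RPKM in naïve samples, Arg1, the cytosolic arginase (chr10:24915221-24927484, minus strand), reached the highest level. It was 0.110, 0.0372 and 0.0770 RPKM in naïve samples and 845, 1224 and 201 RPKM in Vehicle samples, and its Vehicle mean ranked 45th of 21826 protein-coding genes. Ass1, argininosuccinate synthase (chr2:31470207-31520672, plus strand), was 0.570, 0.740 and 0.386 RPKM in naïve and 111, 162 and 208 in Vehicle samples. Acod1 (chr14:103046977-103056573, plus strand) was 0.119, 0.128 and 0.189 RPKM against 68.6, 113 and 126. Nos2 (chr11:78920787-78960254, plus strand) was at 0.0259 RPKM or less in naïve samples and at 10.1, 29.0 and 40.3 in Vehicle samples. The recycling enzyme and Acod1 thus stood well above the synthase itself per unit length. Slc7a2, the inducible arginine transporter (chr8:40862396-40922308, plus strand), went from at most 0.0492 RPKM to 18.1, 27.2 and 8.50, the mitochondrial arginase Arg2 (chr12:79130777-79156301, plus strand) from at most 0.241 to 13.5, 23.5 and 16.0, and Gch1, the first enzyme of tetrahydrobiopterin synthesis and so of the Nos2 cofactor (chr14:47153895-47189413, minus strand), from at most 0.940 to 6.81, 6.58 and 9.05.

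**Figure D1:**
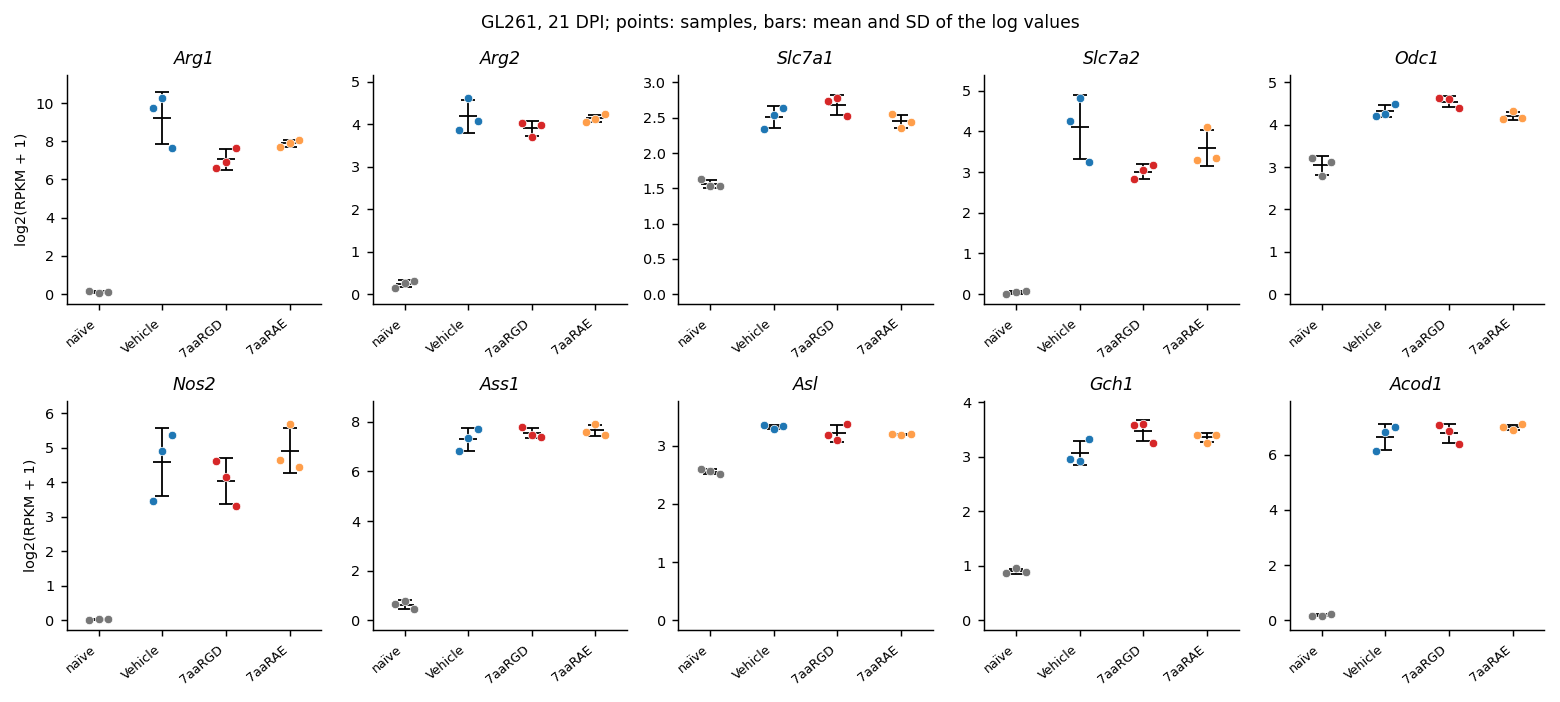
Level of each of the 10 genes as log2(RPKM + 1) (y axes) in the 12 samples of the GL261 experiment at 21 DPI, by group, with each point 1 sample and the bars the mean and SD of the log values. The tumor-bearing groups lie above naïve brain in every panel, and Arg1 spreads from 201 to 1224 RPKM among Vehicle samples.

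Under 7aaRGD at 21 DPI none of the 10 genes passed the test against Vehicle with limma, where 0.148% of 9436 genes were called, and 4 of the 10 (Arg1, Slc7a2, Gch1 and Odc1) had an unadjusted p under 0.05, beside 13.5% of all genes. Arg1 measured 95.6, 122 and 201 RPKM under 7aaRGD and 204, 243 and 265 under 7aaRAE. The highest 7aaRGD sample and the lowest Vehicle sample had the same rounded level, so those groups met at one end, while 7aaRGD lay wholly below 7aaRAE. Arg1 differed from Vehicle by -2.15 under 7aaRGD (95% interval -3.41 to -0.89, adjusted p = 0.191) and by -1.32 under 7aaRAE (-2.59 to -0.062, adjusted p = 0.718). Between the peptides the Arg1 difference was -0.83 (-2.09 to 0.44, adjusted p = 0.992), an interval that holds both 0 and a large decrease. Vehicle replicate 3 decided the result for 7aaRGD: without it the Arg1 difference was -2.93 (limma adjusted p = 0.00623), that of Slc7a2 was -1.52 (adjusted p = 0.0325), and both passed. The Vehicle samples are shared, so the control peptide moved too. As each sample was left out, 7aaRAE reached -2.10 for Arg1 (lowest adjusted p = 0.0804) and -0.947 for Slc7a2 (0.278), without a call. Between the peptides neither gene was called in any such fit (lowest adjusted p = 0.878 and 0.855). Vehicle replicate 3 also had the lowest summed level of 7 border-associated macrophage markers of its group, which ran from 58.1 to 175 RPKM in Vehicle, 62.4 to 86.2 in 7aaRGD and 53.9 to 66.9 in 7aaRAE samples. Mrc1 and F13a1 made up most of that sum, averaging 59.3 and 33.9 RPKM in Vehicle samples, and F13a1 is also among the monocyte markers. Cd163, Lyve1 and Cd209f averaged under 1 RPKM in each of these groups, so the sum says little about border-associated macrophages. Other marker sums did not overlap between 7aaRGD and Vehicle: the 10 microglial markers summed to 1935 to 2557 RPKM against 1282 to 1873, the 8 dendritic cell markers to 91.1 to 106 against 80.1 to 84.4, the 8 T cell markers to 7.47 to 16.9 against 1.25 to 7.33, and the 9 oligodendrocyte lineage markers to 27.4 to 37.6 against 17.6 to 23.8. The 7 NK cell markers summed to 24.9 to 54.0 against 11.4 to 26.0. No gene of these lists was called. Within the dendritic cell sum, Cd209a averaged 32.0 RPKM under 7aaRGD and 18.7 under Vehicle. Batf3 was lower under 7aaRGD (7.32 and 9.90 RPKM), and Flt3 was close to Vehicle (4.98 and 4.90). Of the T cell markers 4 averaged under 1 RPKM under 7aaRGD and 6 under Vehicle. The 4 neuron markers, 3 of them averaging under 1 RPKM, did not overlap either, with sums of 3.20 to 5.77 RPKM under 7aaRGD and 1.67 to 2.78 under Vehicle. The part of all these cells in the members' levels was not tested.

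Slc7a2 followed the order of Arg1 among the Vehicle samples. It was 6.05, 7.28 and 7.98 RPKM under 7aaRGD and 8.89, 16.3 and 9.18 under 7aaRAE, so every 7aaRGD sample was below every sample of the other tumor-bearing groups. Its difference from Vehicle was -1.09 (95% interval -1.89 to -0.30, adjusted p = 0.257). It was the only one of the 10 genes whose 7aaRGD and Vehicle samples did not overlap, beside 17.6% of all genes. Arg2 was 15.2, 12.1 and 14.9 RPKM under 7aaRGD and 15.7, 16.3 and 17.9 under 7aaRAE, against a wider Vehicle range. Odc1, which uses the ornithine that arginase makes, did not share the lower values: it was 23.7, 23.3 and 20.0 RPKM under 7aaRGD and 16.6, 19.0 and 17.0 under 7aaRAE, a difference of 0.33 (95% interval 0.12 to 0.55, adjusted p = 0.778).

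The nitric oxide and itaconate genes showed no called difference between the treatments at 21 DPI. Nos2 was 23.8, 16.8 and 9.04 RPKM under 7aaRGD and 24.0, 50.3 and 20.8 under 7aaRAE. All 3 groups overlapped, and the interval of its difference between 7aaRGD and Vehicle ran from -1.70 to 0.61. Ass1 lay between 165 and 221 RPKM under 7aaRGD and between 178 and 237 under 7aaRAE, and its interval against Vehicle, -0.22 to 0.73, leaves out a decrease beyond 0.22. Acod1 was 133, 114 and 83.7 RPKM under 7aaRGD and 126, 119 and 136 under 7aaRAE (interval for 7aaRGD against Vehicle -0.38 to 0.63). Gch1 was 11.0, 11.1 and 8.56 RPKM under 7aaRGD, 0.41 above Vehicle (adjusted p = 0.244), with overlapping samples. With 7aaRAE against Vehicle, and with 7aaRGD against 7aaRAE, 0% of genes were called by limma. At an unadjusted p under 0.05 stood 600 genes (6.36%) and 520 genes (5.51%), among them 2 of the 10 members in each comparison. Between the peptides 3 of the 10 were wholly lower under 7aaRGD (Arg1, Arg2 and Slc7a2) and 1 wholly higher (Odc1), beside 11.4% of all genes with no overlap.

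The balance of the routes was read as Arg1 per Nos2, a ratio of RPKM within a sample. It was 83.7, 42.1 and 4.98 in Vehicle samples, 4.02, 7.26 and 22.2 under 7aaRGD, and 8.50, 4.83 and 12.8 under 7aaRAE. The Vehicle range took in all but 1 sample of each peptide. Among Vehicle samples, the one with the least Arg1 (replicate 3) had the most Nos2, Ass1 and Acod1.

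**Figure D2:**
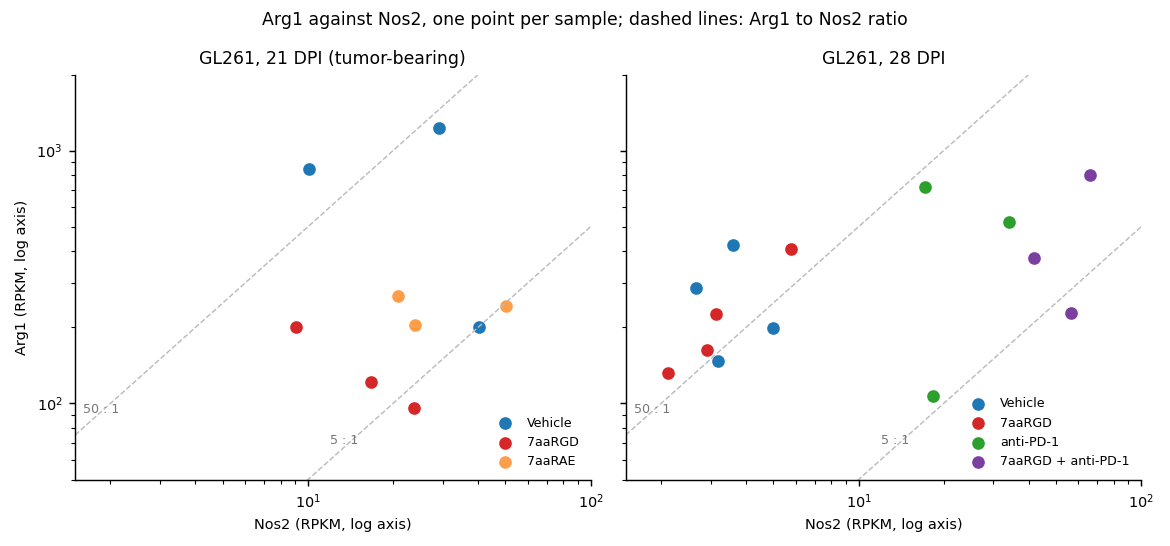
Arg1 (y axis, RPKM, log scale) against Nos2 (x axis, RPKM, log scale), each point 1 tumor-bearing sample of the GL261 experiments at 21 DPI (left) and 28 DPI (right), with dashed lines at fixed Arg1 to Nos2 ratios of 5 and 50. At 28 DPI the groups with anti-PD-1 lie to the right of Vehicle and 7aaRGD, between 17.2 and 65.9 RPKM of Nos2, with overlapping Arg1.

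At 28 DPI Nos2, Ass1, Gch1 and Acod1 were higher than under Vehicle in both groups given anti-PD-1, while Asl and Arg1 were not called in any comparison. Nos2 was 4.98, 2.67, 3.18 and 3.59 RPKM under Vehicle and 5.76, 2.12, 2.92 and 3.13 under 7aaRGD alone. It was 18.3, 34.1 and 17.2 RPKM under anti-PD-1 and 65.9, 41.8 and 56.4 under the combination. These are 6.44-fold and 15.2-fold higher means than Vehicle, with no overlap (log2 differences 2.35 ± 0.28 SE, limma adjusted p = 1.56e-04, and 3.60 ± 0.28, adjusted p = 1.35e-06). In the ranking of 21826 protein-coding genes by mean level Nos2 moved from 7161st under Vehicle to 1932nd and 778th.

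Ass1 and Acod1 moved with Nos2. Ass1 was 14.1, 20.9, 15.4 and 19.1 RPKM under Vehicle, 90.1, 111 and 62.6 under anti-PD-1 and 173, 137 and 117 under the combination, 5.06-fold (adjusted p = 2.75e-05) and 8.19-fold (adjusted p = 4.84e-07) higher. Acod1 was 19.7, 14.2, 25.8 and 32.5 RPKM under Vehicle, 90.2, 99.8 and 68.1 under anti-PD-1, and 152, 85.1 and 92.2 under the combination. Its means were 3.73-fold (adjusted p = 4.42e-04) and 4.76-fold (adjusted p = 3.14e-05) above Vehicle. Asl, the next enzyme after Ass1, stayed within 7.55 to 9.73 RPKM over all 14 samples, so that Ass1 per Asl was 1.58 to 2.73 in the samples without anti-PD-1 and 7.65 to 20.0 in those with it. Leaving out each sample of these groups in turn kept Nos2, Ass1 and Acod1 past the threshold every time.

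Gch1, the cofactor enzyme, rose by less. It was 2.66, 1.67, 2.74 and 2.35 RPKM under Vehicle, 4.73, 3.34 and 2.83 under anti-PD-1 and 4.29, 3.69 and 3.49 under the combination, 1.54-fold (adjusted p = 0.0405) and 1.62-fold (adjusted p = 0.0110). The first call was lost without Vehicle replicate 2 (adjusted p = 0.105), without Vehicle replicate 4 (0.0714), and without anti-PD-1 replicate 1 (0.181) or 2 (0.0800), and the second without combination replicate 1 (0.0529).

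Thus 4 of the 10 genes were higher under anti-PD-1 and 5 under the combination, beside 23.1% and 43.3% of 9732 genes called in either direction and 10.8% and 17.5% called higher. The members' median difference was 0.46 and 0.70, against -0.0052 and -0.049 over all genes tested. The members were chosen with earlier results of these data known, so these counts and medians describe them and are no test of the list. With 7aaRGD alone against Vehicle none of the 10 passed with limma and none had an unadjusted p under 0.05, where 0.647% of all genes were called and 14.6% had such a p. The interval for Nos2 in that comparison was -0.62 to 0.47.

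**Figure D3:**
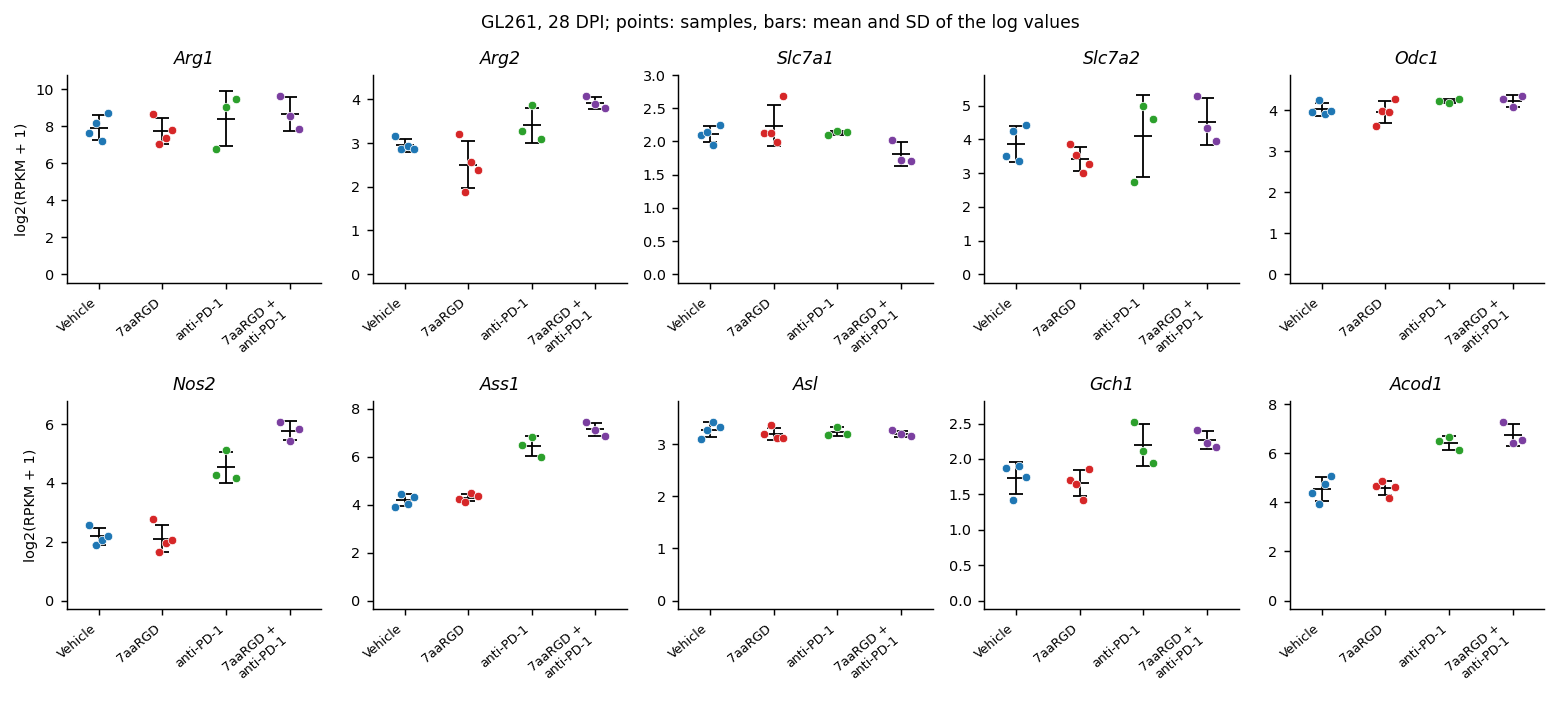
Level of each of the 10 genes as log2(RPKM + 1) (y axes) in the 14 samples of the GL261 experiment at 28 DPI, by group, with each point 1 sample and the bars the mean and SD of the log values. Nos2, Ass1 and Acod1 lie higher in every anti-PD-1 and combination sample than in any Vehicle or 7aaRGD sample, whereas Arg1 and Asl overlap across all 4 groups.

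On the arginase route at 28 DPI, Arg2 was called under the combination and Arg1 was not, and the difference between the 2 genes was not tested. Arg1 was 199, 287, 148 and 424 RPKM under Vehicle and 407, 132, 163 and 227 under 7aaRGD. It was 107, 524 and 717 RPKM under anti-PD-1 and 802, 377 and 228 under the combination. All 4 groups overlapped, and the differences from Vehicle were 0.49 (95% interval -0.84 to 1.82, adjusted p = 0.607) and 0.74 (-0.59 to 2.07, adjusted p = 0.347) for anti-PD-1 and the combination, with intervals that hold decreases as well as increases. The value under anti-PD-1 rests on single samples and lay between -0.05 and 1.32 as each sample was left out. Arg2 was 8.01, 6.23, 6.58 and 6.26 RPKM under Vehicle and 15.9, 13.8 and 13 under the combination, a 2.10-fold rise (0.97, adjusted p = 0.00600). Under anti-PD-1 alone Arg2 was 8.62, 13.5 and 7.57 RPKM (adjusted p = 0.192).

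The transporters were not called against Vehicle. Slc7a2 was 10.3, 17.9, 9.17 and 20.4 RPKM under Vehicle, 5.60, 31.0 and 23.4 under anti-PD-1 and 38.2, 19.4 and 14.4 under the combination. Its lowest sample under anti-PD-1 and its highest under the combination were those with the least and the most Arg1 of the 14. Slc7a1 was 2.87 to 3.77 RPKM under Vehicle and 3.07, 2.30 and 2.25 under the combination (difference -0.30, adjusted p = 0.103). Odc1 was 14.0 to 18.0 RPKM under Vehicle and 15.8 to 19.3 under the combination.

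Adding 7aaRGD to anti-PD-1 was compared with anti-PD-1 alone. Nos2 was 2.36-fold higher in the combination, and all 3 combination samples lay above all 3 anti-PD-1 samples, but the difference of 1.25 (95% interval 0.61 to 1.88) had an adjusted p of 0.0835 and was not called. Ass1 likewise did not overlap and was 1.62-fold higher (difference 0.71, interval 0.28 to 1.14, adjusted p = 0.124). None of the 10 passed with limma, where 0.0411% of genes were called, and 2 of 10 had an unadjusted p under 0.05, beside 15% of all genes. Samples did not overlap for 3 of the 10, with Nos2 and Ass1 higher and Slc7a1 lower, beside 21.5% of all genes. Acod1 (0.32, interval -0.29 to 0.92) and Arg1 (0.26, interval -1.16 to 1.68) overlapped. Whether 7aaRGD acted differently with and without anti-PD-1 was tested as an interaction: it was 1.32 for Nos2 (interval 0.48 to 2.16, adjusted p = 0.588) and called for 0% of genes, with 794 genes (8.16%) and 4 of the 10 members at an unadjusted p under 0.05.

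Against 7aaRGD alone, the combination was higher for 5 of the 10 and lower for 1, where 36.6% of genes were called, 13% higher and 23.6% lower. Nos2 was higher by 3.67, Ass1 by 2.85, Acod1 by 2.17, Arg2 by 1.42 (adjusted p = 7.97e-04) and Gch1 by 0.61 (adjusted p = 0.00666) on the log2 scale. Slc7a1 was lower by a log2 difference of -0.42 (adjusted p = 0.0314) with overlapping samples, and this call was lost without 7aaRGD replicate 4 (adjusted p = 0.0520) and without combination replicate 2 (0.0987) or 3 (0.114). Odc1 differed by 0.27 (adjusted p = 0.118), and by 0.37 (adjusted p = 0.0255) without 7aaRGD replicate 4.

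**Figure D4:**
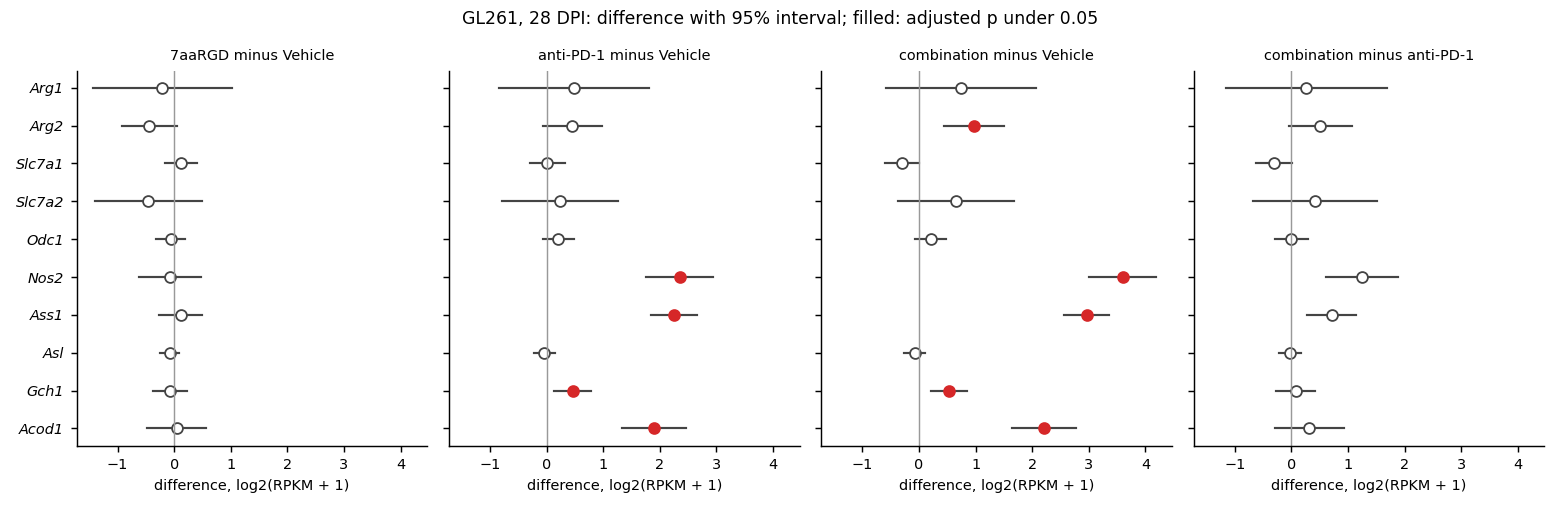
Log2 difference in log2(RPKM + 1) (x axis) of each of the 10 genes at 28 DPI for 4 comparisons, with points at the limma estimate (filled where called) and bars as 95% intervals. Nos2, Ass1 and Acod1 stand clear of 0 in the comparisons of anti-PD-1 and of the combination with Vehicle, and the Arg1 intervals include 0 in each.

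Arg1 per Nos2 at 28 DPI was 39.9, 108, 46.4 and 118 under Vehicle and 70.6, 62.2, 56.0 and 72.3 under 7aaRGD. It was 5.84, 15.3 and 41.8 under anti-PD-1 and 12.2, 9.02 and 4.05 under the combination. Every combination sample was below every sample without anti-PD-1, and 1 anti-PD-1 sample (replicate 3) fell inside the Vehicle range. Arg1 itself overlapped between all 4 groups, whereas Nos2 did not overlap between samples with and without anti-PD-1.

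Markers of other cells moved with anti-PD-1 in the same samples. The 10 monocyte markers summed to 2739 to 3303 RPKM under Vehicle, 2712 to 3722 under 7aaRGD, 4265 to 6476 under anti-PD-1 and 5743 to 7653 under the combination, with 6 of 10 called higher than Vehicle in each of the last 2 groups. The 7 NK cell markers summed to 2.30 to 11.2 RPKM, 1.70 to 10.5, 2.82 to 68.9 and 26.1 to 81.5, and 4 of the 5 tested were called higher in the combination. The 8 T cell markers summed to 1.5 to 2.80 RPKM under Vehicle and 0.742 to 2.28 under 7aaRGD. They summed to 1.51 to 6.89 RPKM under anti-PD-1 and 4.50 to 8.36 under the combination. The 8 dendritic cell markers summed to 7.66 to 10.7, 7.35 to 9.74, 14.1 to 25.6 and 20.7 to 25.9 in that order. Of the T cell markers 8, 8, 7 and 5 averaged under 1 RPKM in these groups, and of the dendritic cell markers 7, 7, 4 and 2. Batf3, most of the dendritic cell sum under Vehicle, averaged 6.53 RPKM there and 6.97 in the combination. The anti-PD-1 sample with the lowest NK marker sum, replicate 3, also had the lowest Nos2 (17.2 RPKM), Ass1 and Acod1 of its group. In the combination it was the other way round. Replicate 1 had the lowest NK marker sum (26.1 RPKM) and the highest Nos2 (65.9 RPKM), Ass1 and Acod1 of that group. Each case describes 1 sample only. The part of these cells in the members' levels was not tested.

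Of 6 lists of other genes of these pathways, 72 genes were tested at 28 DPI, and 13 were higher and 9 lower under anti-PD-1, 17 higher and 25 lower under the combination. Of all genes tested, 10.8% were called higher and 12.2% lower under anti-PD-1, and 17.5% higher and 25.8% lower under the combination. The 19 tested genes for inducers and signal transducers of both routes held 8 and 11 of the higher calls. Irf1, an interferon-induced activator of Nos2, averaged 54.7 RPKM under Vehicle, 116 under anti-PD-1 (adjusted p = 0.00227) and 144 under the combination. The cytokine gene Tnf averaged 13.8 RPKM under Vehicle and 41.2 under the combination, and Atf3, a stress-induced regulator, 33.1 and 89.3.

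Other lists moved less evenly under the combination, where 17.5% of all genes were called higher and 25.8% lower. The list of arginine entry and supply is not described here. Of 14 polyamine genes 1 was higher and 8 lower, and of 8 further nitric oxide genes 1 was higher and 6 lower. Of 19 genes around itaconate 2 were higher and 7 lower. Of 5 genes on the way from ornithine to proline only P4ha1, a prolyl hydroxylase that modifies collagen rather than making proline, was higher (22.8 to 65.1 RPKM). At 21 DPI, tumors against naïve brain gave 36 higher and 27 lower of 73 such genes, with Il1b at 16.7 and 453 RPKM and Ddah2, which degrades an inhibitor of nitric oxide synthase, at 24.7 and 2.00. Over all genes that comparison called 34.6% higher and 48.2% lower. Under 7aaRGD at 21 DPI only Clybl, whose enzyme takes part in the breakdown of citramalyl-CoA, an itaconate product, was called (log2 difference -0.49, adjusted p = 0.0384). With a pseudocount of 0.1, a minimum mean of 5 RPKM, a median-of-ratios scaling, 1 residual degree of freedom less or a replicate block, 0 of all genes were called in that comparison, Clybl included. Under 7aaRGD alone at 28 DPI none of the 72 was called with limma, with 7 at an unadjusted p under 0.05.

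The stretches just upstream of Acod1, Gch1 and Ass1, which were higher together under anti-PD-1, are shown because interferon-induced genes are often reached through short motifs near the start. They come from RefSeq (GRCm38.p6), which held 5 of the 10 members (Ass1, Slc7a1, Odc1, Gch1 and Acod1). Each is written 5′ to 3′ on the gene's strand and ends where the annotated gene begins. They lie at chr14:103046762-103046976 (plus strand), chr14:47189414-47189663 (minus strand) and chr2:31470020-31470206 (plus strand), and capitals mark a match to the motifs searched.
Acod1: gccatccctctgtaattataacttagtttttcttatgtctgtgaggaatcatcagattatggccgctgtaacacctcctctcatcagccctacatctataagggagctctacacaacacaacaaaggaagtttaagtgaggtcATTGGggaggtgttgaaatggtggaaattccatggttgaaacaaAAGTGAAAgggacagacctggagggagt
Gch1: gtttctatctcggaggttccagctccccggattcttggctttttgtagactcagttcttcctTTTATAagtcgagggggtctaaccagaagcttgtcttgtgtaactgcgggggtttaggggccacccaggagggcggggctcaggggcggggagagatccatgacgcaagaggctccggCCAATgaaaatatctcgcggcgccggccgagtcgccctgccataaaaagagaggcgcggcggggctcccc
Ass1: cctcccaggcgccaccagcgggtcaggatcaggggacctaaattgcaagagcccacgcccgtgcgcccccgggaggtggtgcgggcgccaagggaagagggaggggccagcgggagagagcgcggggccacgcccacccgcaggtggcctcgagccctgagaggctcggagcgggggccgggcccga
The motifs were searched on both strands in the 250 bases before each start. Those reported here are the STAT6-type motif with TTC and GAA set 4 bases apart, held by 5.85% of 32851 promoters, the IRF core AANNGAAA (21.3%), the AP-1 site TGANTCA (6.75%), the E-box CACGTG (6.02%), CCAAT (33.8%) and TATAAA (12.4%). The capitals in Acod1 are CCAAT on the reverse strand and an IRF core, 107 and 63 bases before the RefSeq start. In Gch1 they are TATAAA on the reverse strand and CCAAT, 188 and 70 bases before it. The printed Ass1 stretch held none of them. A TATAAA 28 bases before the RefSeq start of Acod1 and a CACGTG 36 bases before that of Ass1 lie beyond the stretches shown. Acod1 and Gch1 thus share CCAAT and TATAAA, on different strands and at different distances, and Ass1 shares neither with them. Slc7a1, which was not called under anti-PD-1, also held TATAAA, the IRF core and the AP-1 site, so these matches are not particular to the genes shown. A match is a description of letters, not a binding site.

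Set side by side, the Vehicle samples of the GL261 experiments at 21 and 28 DPI did not overlap in Ass1, Acod1, Nos2, Gch1, Arg2 and Slc7a1. They overlapped in Arg1, Slc7a2, Odc1 and Asl. The share of all genes without overlap between these experiments was not computed, so the split cannot be read as particular to these genes. Ass1 was 111 to 208 and 14.1 to 20.9 RPKM, Acod1 68.6 to 126 and 14.2 to 32.5, and Nos2 10.1 to 40.3 and 2.67 to 4.98. Gch1 was 6.58 to 9.05 and 1.67 to 2.74 RPKM, Arg2 13.5 to 23.5 and 6.23 to 8.01, and Slc7a1 4.05 to 5.25 and 2.87 to 3.77. Arg1 was 201 to 1224 and 148 to 424 RPKM, which overlap. These experiments differ in time, pooling, control antibody and normalization, which cannot be told apart here.

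In U87-MG tumors in nude mice Arg1, Nos2, Slc7a2 and Acod1 were at 1.66 RPKM or less in every sample. Arg1 was 0.833, 0.196 and 0.886 RPKM under Vehicle, 0.862, 1.56 and 0.527 under 7aaRGD, and 1.42, 0.736 and 0.606 under 7aaRAE. Nos2 was at most 0.337 and Slc7a2 at most 0.178 RPKM in any of the 9 samples, and Acod1 lay between 0.340 and 1.66. The other 6 genes were present, with Gch1 at 1.27 to 2.74 RPKM, Slc7a1 at 4.27 to 6.92 RPKM, Odc1 at 5.54 to 9.22 and Asl at 5.26 to 6.61. Ass1 was 10.7, 8.29 and 7.36 RPKM under Vehicle, 7.76, 6.43 and 16.5 under 7aaRGD, and 7.74, 6.81 and 9.02 under 7aaRAE.

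**Figure D5:**
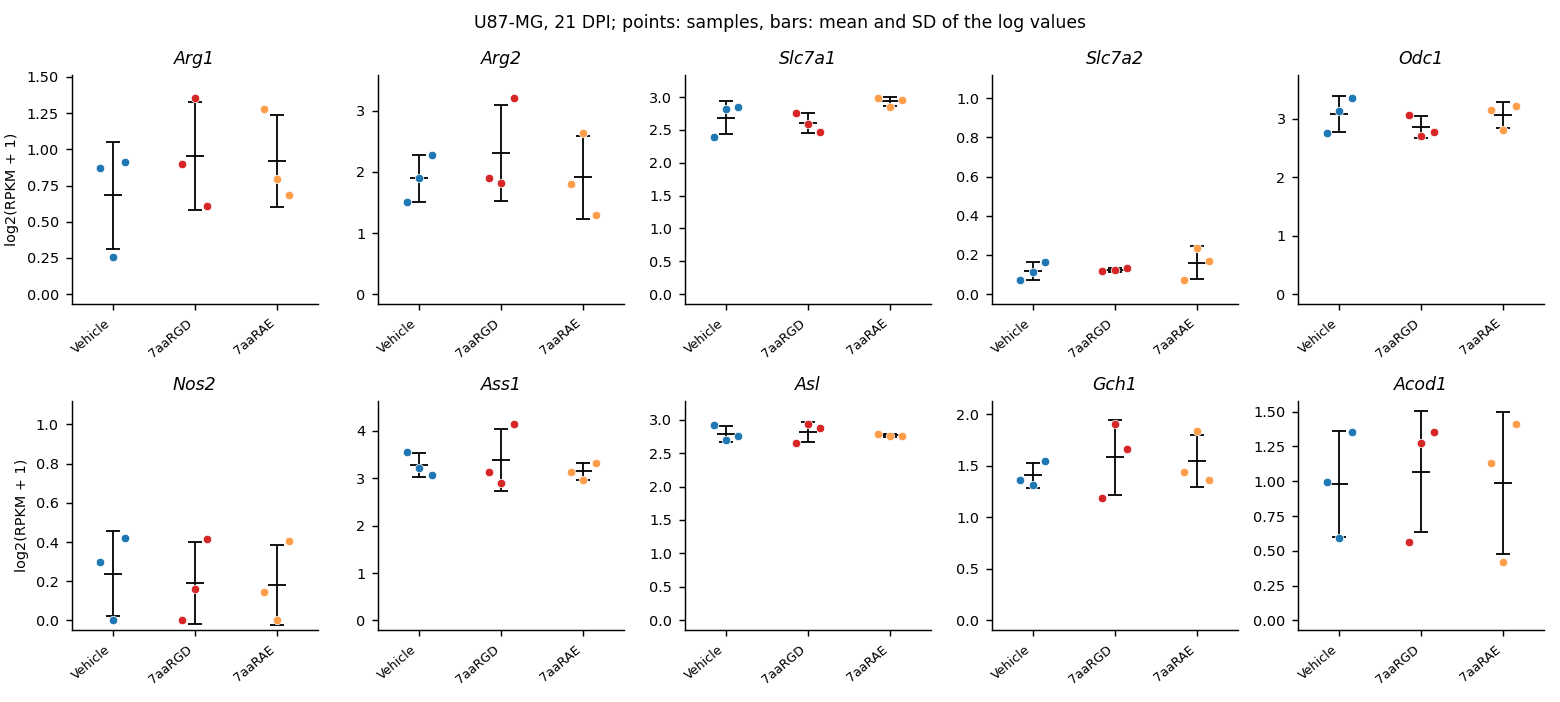
Level of each of the 10 genes as log2(RPKM + 1) (y axes) in the 9 samples of the U87-MG experiment at 21 DPI, by treatment, with each point 1 sample and the bars the mean and SD of the log values. Arg1, Nos2, Slc7a2 and Acod1 stay at or below 1.66 RPKM, and 1 sample under 7aaRGD stands above the others in Ass1 and Arg2.

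Arg2 was 1.85, 2.72 and 3.86 RPKM under Vehicle and 2.71, 2.52 and 8.24 under 7aaRGD. The sample with 8.24 RPKM was also the one with 16.5 RPKM of Ass1 and the 374 RPKM of H2-Ea-ps. Among these samples 7 of the 10 genes were tested, and none passed with limma in any comparison, where 0% of 9659 genes were called for 7aaRGD against Vehicle, 0.0104% for 7aaRAE against Vehicle and 0% between the peptides. At an unadjusted p under 0.05 stood 364 (3.77%), 746 (7.72%) and 326 (3.38%) of all genes, and 0, 0 and 1 of the 7 members, the last being Slc7a1 (-0.33 for 7aaRGD against 7aaRAE, without overlap, beside 6.46% of all genes). The intervals for 7aaRGD against Vehicle were -0.53 to 0.75 for Ass1 and -0.56 to 1.38 for Arg2.

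The genes most like Arg1, Nos2 and Acod1 were taken by the mean over the experiments of Pearson's r across samples (12, 14 and 9 samples, 5399 candidate genes). For Arg1 they were Agtrap (mean r 0.776), Dnajc13 (0.728) and Psap (0.722). For Nos2 they were C3 (0.837), Txn1 (0.833) and Pgam1 (0.826), and for Acod1 Txn1 (0.867), Pgam1 (0.866) and Rab20 (0.858). Txn1 and Pgam1 were named for both Nos2 and Acod1, and no gene was named for Arg1 and another of the 3. The r at 21 DPI, at 28 DPI and in U87-MG differed, as for Psap with Arg1 (0.988, 0.625 and 0.553) and C3 with Nos2 (0.954, 0.933 and 0.624). Points share a table and its normalization, and those of the first experiment include the step from naïve brain to tumor. Those at 28 DPI include the step to anti-PD-1, with which both Nos2 and Acod1 were higher. In U87-MG Arg1, Nos2 and Acod1 lay at or near the floor, so those means are a loose description.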

How the data were processed

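CD11b+ cells were profiled by stranded poly-A RNA sequencing in 3 experiments. Trimmomatic, STAR with mm10, and HTSeq 0.11.1 served the authors for trimming, alignment and counting. How the deposited tables were normalized is not given in the sources used here. The values of the authors' tables, less a constant of 2 found in each, behave as RPKM, and that difference is called RPKM here. In each sample 6.58% to 18.0% of the rows with signal lay below the constant, so the tables were altered after normalization, and low values are least reliable. The files allow no count model. Negative values were set to 0 for the tests.

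limma 3.58.1 in R 4.3.3 was run on log2(RPKM + 1) with a trended variance, over protein-coding genes whose mean over the fitted samples was 1 RPKM or more. Tumor-bearing groups of a table shared 1 fit, and naïve and Vehicle samples another. The method was tested on simulated data. Genes were named by rule: the 10 members always, at most 6 called genes per comparison from 6 fixed pathway lists, and the 3 genes most like Arg1, Nos2 and Acod1. Members and lists were chosen with earlier results of these data known. Groups came from the labels. Alternatives were the pseudocount, the filter, the scaling, a replicate block, fitting only the groups compared and leaving out each sample. Of 40 samples, 5 had no matching column (3 naïve nude mice, and replicate 4 under anti-PD-1 and under the combination) and were not analysed here. Gene positions are those of mm10. One pathway gene that the rule names, and a motif, are not reported here.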

Additional observations from a re-analysis of the deposited data

Results flagged for a closer look

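A sample standing far from the other 3 of its group, by Dixon's ratio of its gap to the group's range, was found for 2 of 20 groups of 4 tested, all at 28 DPI, where chance gives about 1 in 20. Slc7a1 was 5.43 RPKM in 7aaRGD replicate 4 against 2.98 to 3.39 RPKM in the others, and the lower Slc7a1 of the combination against 7aaRGD was not called without that sample. Odc1 was 18.0 RPKM in Vehicle replicate 2 against 14.0 to 14.7 RPKM in the other Vehicle samples.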

How the results depend on the processing

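No member changed direction under any alternative where it was called. The count of members past the threshold for 7aaRGD against Vehicle at 21 DPI was 0, and 0 to 2 as each sample was left out, with 2 (Arg1 and Slc7a2) without Vehicle replicate 3, when 120 of all genes were called instead of 14. As each sample was left out, the counts were 3 to 4 for anti-PD-1 against Vehicle, 4 to 5 for the combination against Vehicle and 5 to 6 against 7aaRGD. Gch1 under anti-PD-1 missed the threshold with no filter on low values (limma adjusted p = 0.0748), with 1 residual degree of freedom less (0.0572) and with only the groups compared in the fit (0.0789). Slc7a1, lower in the combination than under 7aaRGD, missed it with no filter (0.0588) and with only those groups (0.0870), a fit in which Slc7a2 passed it in the same comparison (0.0269) and Slc7a1 in the combination against Vehicle (0.0467). Other pseudocounts and a median-of-ratios scaling changed no member's call. Same-numbered samples did not deviate together, with a correlation above 0.1 in 1 of 9 pairs at 21 DPI and 3 of 19 at 28 DPI, so the numbers were not taken as pairing. With a replicate block the counts were 10 for Vehicle against naïve, 4 for anti-PD-1, 5 for the combination and 6 for the combination against 7aaRGD, as without it, and 0 in the other comparisons. No paired analysis was possible because the columns carry no replicate numbers in the U87-MG table. Depth is unknown, and the intervals of Arg1 were the widest of the 10 in both GL261 experiments.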
